A study of Mus musculus with 14 samples.

Results

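Gene expression was compared between estrus and diestrus in the whole uterus of wild-type (WT) mice, by RNA sequencing. The mice were intact and untreated females of the inbred strain FVB/N, 2 months old, and carried no targeted allele according to the labels. There were 4 WT diestrus libraries, numbered 1 to 4, and 3 WT estrus libraries, numbered 1, 2 and 4. The series holds 14 libraries in all, and the other 7, from mice with a conditional knockout of HIF2A, entered only an alternative fit. The members are genes: of 31274 gene symbols in the deposited table, 13939 had at least 1 FPKM in at least 3 of the 7 WT libraries and were tested, and 9686 were at 0 in all 7. FPKM counts sequenced fragments per length of transcript and per size of library, so levels can be set side by side between genes. No label says that the libraries of a stage came from separate animals, and the p-values then measure just the spread among these samples, which may be technical. The sources used here give neither how the stage was assigned nor the hour of collection.

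The estrous cycle is run by the ovary. At diestrus the corpora lutea secrete progesterone, which acts through the progesterone receptor (Pgr) in epithelium and stroma, and the luminal and glandular epithelium signals to the stroma through the hedgehog ligand Ihh. Estrus follows the preovulatory surge of estrogen, which acts through the estrogen receptor (Esr1), makes the epithelium secrete fluid and antimicrobial proteins, and brings leukocytes into the tissue. The uterine wall holds luminal and glandular epithelium, stromal fibroblasts, the smooth muscle of the myometrium, vessels and immune cells, and a whole-tissue library reads their sum. In such bulk samples fewer cells of a type and less RNA per cell cannot be told apart.

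The summed FPKM of the 7 libraries ran from 437879 to 487099, and their relative depth, read from the smallest steps of low values, from 1.0 in estrus 1 to 1.84 in estrus 4. On log2(FPKM + 1), Pearson correlations across genes were 0.955 to 0.992 within diestrus, 0.989 to 0.994 within estrus and 0.878 to 0.927 between the stages. All 16 of 16 markers of the uterine wall were measured. Of 22 markers of the squamous epithelium of cervix or vagina, 17 were below the filter, among them the basal keratins Krt5 (at most 1.29 FPKM) and Krt14 (at most 1.19 FPKM), and 11 of 16 markers of ovary and oviduct were below it. The libraries stood apart in 3 further ways. Natural killer and T cell markers summed to 250.6 FPKM in diestrus 3 and to 24.72 to 44.09 FPKM in the other 6 libraries, red blood cell markers to 1047 FPKM in diestrus 3 and 185 to 426 FPKM in the others, and adipocyte markers to 207 FPKM in estrus 1 and 51.6 to 118 FPKM in the others.

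The diestrus libraries differed more among themselves than the estrus libraries. The median SD over genes was 0.147 log2 at diestrus and 0.0838 log2 at estrus, and the first principal component, 75.9% of the variance, placed the 4 diestrus libraries at -23.7, -45, -45.8 and -28.2 and the estrus libraries between 46.4 and 48.7. On this axis diestrus 1 and 4 lay nearer to estrus than diestrus 2 and 3. The second component, 12.3% of the variance, set diestrus 1 (23.1) and 4 (20.7) against diestrus 3 (-31.3). Of the 766 genes at least 2-fold higher at estrus, diestrus 1 held the highest diestrus value in 369 (48.2%; 20.1% of all genes tested) and diestrus 3 the lowest in 364 (47.5%; 33.0% of all genes tested). Of the 768 genes at least 2-fold lower at estrus, diestrus 2 was the highest in 350 (45.6%; 30.7% of all genes tested). Diestrus 3 was the highest in 226 of them (29.4%; 28.7% of all genes tested) and the lowest in 242 (31.5%), near its shares over all genes. The median gap to the estrus mean over the genes at least 2-fold higher was -1.22, -1.57, -1.66 and -1.33 log2 in diestrus 1 to 4. Values below are therefore given by library, diestrus 1, 2, 3 and 4 first and then estrus 1, 2 and 4.

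**Figure D1:**
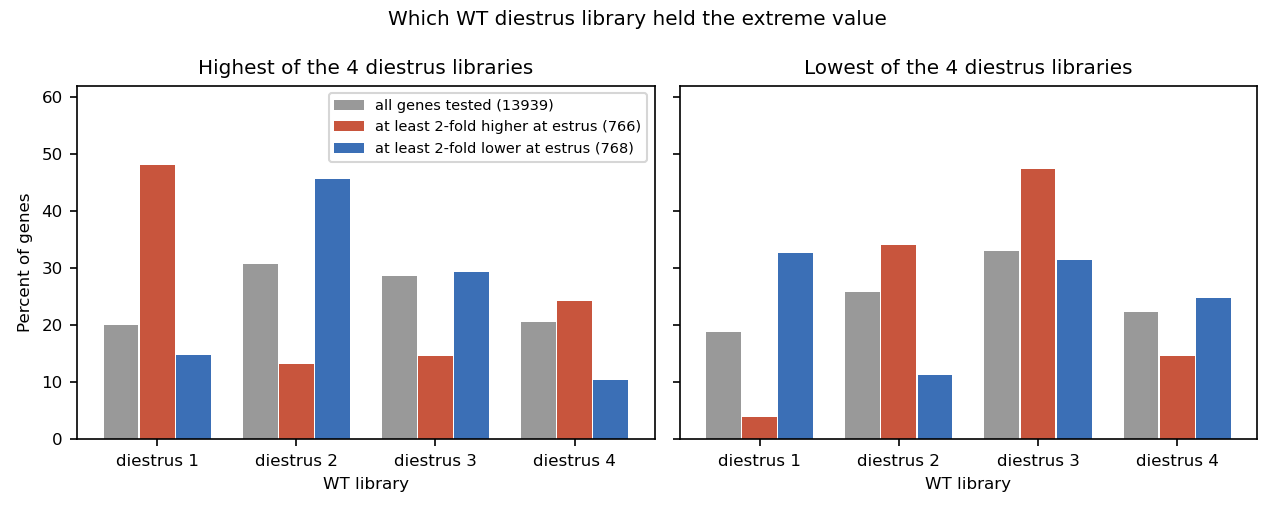
For each WT diestrus library, the percent of genes in which it held the highest (left) or the lowest (right) of the 4 diestrus values, for all 13939 genes tested, the 766 at least 2-fold higher and the 768 at least 2-fold lower at estrus. Diestrus 1 was the highest in 48.2% of the genes higher at estrus and diestrus 3 the lowest in 47.5% of them.

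Some genes were high in diestrus 2 and 3 and low in diestrus 1 and 4. Histidine decarboxylase Hdc, which makes histamine, stood at 14.2, 78.5, 64.3 and 21.5 FPKM at diestrus and 2.33, 2.71 and 2.38 at estrus. All 4 diestrus values lay above estrus, those of diestrus 2 and 3 by the widest margin. The channel regulator Fxyd4 read 8.18, 103, 104 and 9.93 FPKM at diestrus and 11.5, 12.9 and 9.7 at estrus, so that diestrus 1 and 4 lay at the level of estrus and the difference did not pass the test (adjusted p = 0.242). The calcium-binding protein gene S100g read 44.8, 261, 639.7 and 41.3 FPKM at diestrus and 30.4, 23.9 and 31.7 at estrus and did not pass (adjusted p = 0.0804), although every diestrus value lay above estrus. Lif, a cytokine of uterine glands, read 0.765, 4.46, 8.25 and 0.523 FPKM at diestrus and 1.93, 1.14 and 1.42 at estrus, with diestrus 2 and 3 above the estrus values and diestrus 1 and 4 below them. The endocytic receptor gene Lrp2, below the filter, stood at 0.508, 8.33, 11.1 and 0.967 FPKM in the 4 diestrus libraries and at most 0.134 FPKM at estrus. The water channel gene Aqp8, also below it, stood at 0.199, 12, 5.41 and 0.262 FPKM and at most 0.222 FPKM. Aqp8 was as low in diestrus 1 and 4 as at estrus, whereas Lrp2 was low there but above its estrus values. The ligand gene Wnt4 had the opposite order, 21.3, 3.98, 1.29 and 20.5 FPKM at diestrus and 18.4, 17.1 and 14.5 at estrus, with diestrus 2 and 3 the low ones. In diestrus 3 alone the protease inhibitor gene Spink3 reached 29 FPKM, the calcitonin gene Calca 7.13 FPKM and Areg, a ligand of the epidermal growth factor family, 5.4 FPKM. Each of these 3 genes was at most 0.558 FPKM in the other 6 libraries.

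Over all genes, 7812 of 13939 (56%) differed between the stages at an adjusted p under 0.05, by limma on log2(FPKM + 1) with Benjamini-Hochberg adjustment. Estrus was higher in 3113 genes (22.3%) and lower in 4699 (33.7%). By at least 2-fold on this scale, 766 genes (5.5%) were higher and 768 (5.51%) lower, and by at least 4-fold 162 (1.16%) and 128 (0.918%). Every estrus library lay above every diestrus library in 3378 genes (24.2%) and below in 5189 (37.2%). The median gene stood at -0.09 log2, so small falls depend on how libraries are scaled. When the libraries were scaled by median of ratios the median was -0.02, and 3716 genes were higher and 3783 lower (49.6% of called genes higher, against 39.8% in FPKM as deposited). The counts of lists below are read against the shares of 22.3% and 33.7%.

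**Figure D2:**
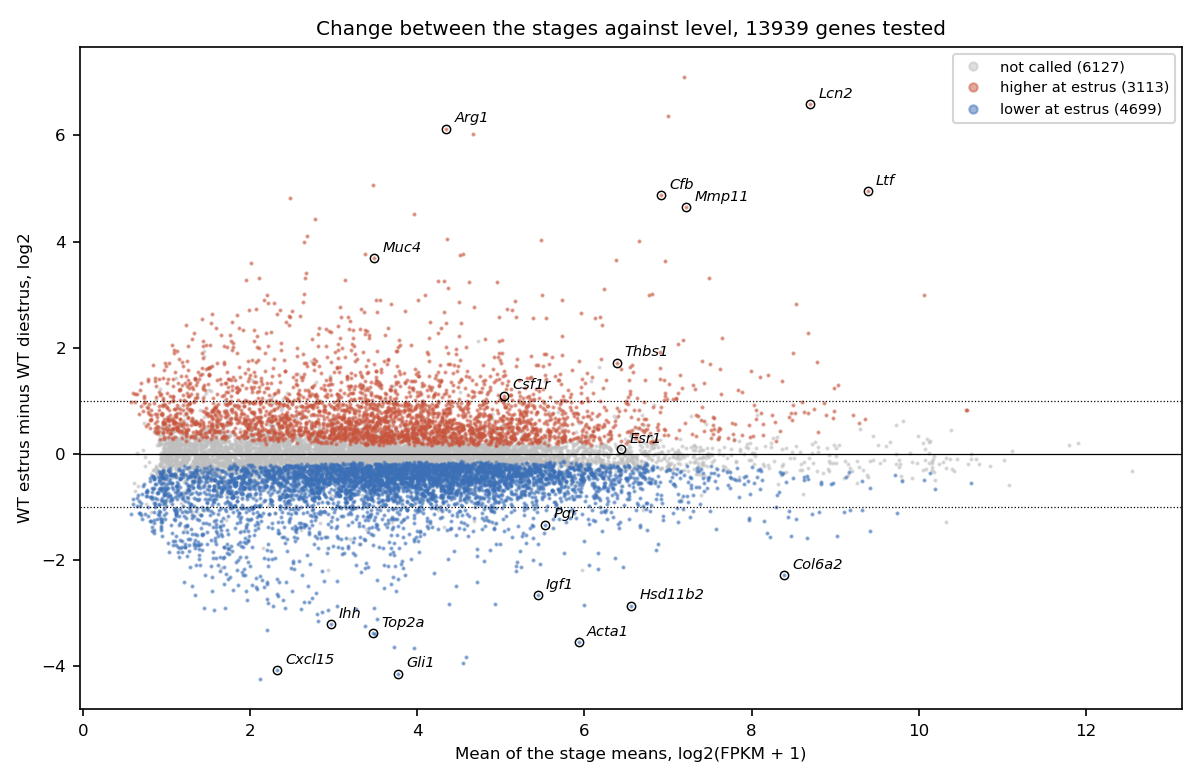
Log2 difference between the stage means, WT estrus minus WT diestrus, against the mean level, both on log2(FPKM + 1), for 13939 genes. The 3113 genes called higher, the 4699 called lower and the genes not called are coloured, dotted lines mark 2-fold, and genes discussed in the text are circled.

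The 15 largest rises included secreted proteins of the epithelium. The proline-rich secreted protein Prap1 read 65.4, 6.75, 0.175 and 39.3 FPKM at diestrus and 2437, 1507 and 1374 at estrus (log2 difference 7.10, SE 1.3, adjusted p = 0.00271). Lipocalin Lcn2, which binds bacterial siderophores, read 253, 20.3, 3.64 and 128 FPKM at diestrus and 4563, 3216 and 4679.6 at estrus (log2 difference 6.59, SE 1.3, adjusted p = 0.00354). Both were far higher in every estrus library than in any diestrus library, and at diestrus both were highest in library 1, then 4, then 2, and lowest in 3. Clca3, a secreted protein of mucus, read 49.7, 25.1, 0.366 and 21.2 FPKM at diestrus and 1167, 926 and 1463 at estrus. The scavenger protein Dmbt1, which binds bacteria, read 3.06, 0.247, 0.03 and 1.61 FPKM at diestrus and 55.5, 62 and 74.2 at estrus. Arginase Arg1, which splits arginine into ornithine and urea, had no such grading at diestrus. It read 1.38, 2.27, 1.25 and 0.996 FPKM at diestrus and 181, 133 and 201 at estrus (log2 difference 6.13, SE 0.2, adjusted p = 1.11e-05), so that its diestrus values were all low and close together. The diamine oxidase Aoc1, which degrades histamine and putrescine, read 7.86, 0.996, 0.626 and 2.45 FPKM at diestrus and 169.7, 189.8 and 268 at estrus, with diestrus 1 the highest of the 4. Kap, an androgen-regulated protein first known from kidney, stood at 0.182, 0, 0 and 0.043 FPKM at diestrus and 31.7, 19.4 and 38.5 at estrus. Trim63, a ubiquitin ligase known from muscle atrophy, read 1.09, 0.1, 0.267 and 0.973 FPKM at diestrus and 22.9, 26.8 and 27.6 at estrus. The calcium channel Trpv6, which takes up calcium in epithelia, read 10.2, 2.92, 1.3 and 5.37 FPKM at diestrus and 88.9, 67.9 and 91.2 at estrus. The other genes of the 15 were Ltf, Cfb, Mmp11, Sftpd, the secreted phospholipase Pla2g2e and the ubiquitin ligase Rnf186, each with log2 differences between 4.03 and 4.95. The stages did not overlap in any of the 15, which the rule for naming them required. Of 29 measured genes of the estrogen response of uterine epithelium 14 were higher, each by at least 2-fold, and 6 lower, with a median of 1.03 log2 against -0.09 over all genes tested.

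The 15 largest falls included hedgehog, stromal and cell division genes. Gli1 (chr10:127329882-127341974, - strand, GRCm38), the transcription factor at the end of the hedgehog pathway, read 46.1, 61.9, 70.3 and 49.98 FPKM at diestrus and 2.01, 2.71 and 2.01 at estrus (log2 difference -4.15, SE 0.16, adjusted p = 1.12e-05). The protease inhibitor Wfdc1 read 70.8, 91.8, 116 and 90.3 FPKM at diestrus and 5.85, 4.3 and 4.9 at estrus. In both genes the diestrus libraries were close together, with library 3 the highest. Angptl7, a secreted angiopoietin-like protein, read 31.8, 108, 338 and 54.7 FPKM at diestrus and 5.61, 4.79 and 5.53 at estrus. Monoamine oxidase Maob, which degrades amines, read 19.6, 84.4, 194 and 26.9 FPKM at diestrus and 4.24, 2.76 and 3.21 at estrus. Here the diestrus libraries were spread, with diestrus 3 the highest and diestrus 1 the lowest in both genes. The interleukin receptor chain Il17rb read 13.8, 61.3, 95.2 and 13.7 FPKM at diestrus and 3.32, 2.78 and 2.63 at estrus, again with diestrus 2 and 3 the high ones. Bpifb5, a secreted protein of the lipid-binding BPI fold family, ran the other way at diestrus, with 128, 53.9, 7.25 and 81.2 FPKM at diestrus and 2.81, 3.38 and 2.08 at estrus (log2 difference -3.65, SE 0.85, adjusted p = 0.00819). Skeletal actin Acta1 read 242, 166, 156 and 298 FPKM at diestrus and 20.5, 15.6 and 14.9 at estrus, with diestrus 4 the highest. Map2, a microtubule protein, fell from 20.2 ± 6.45 to 1.58 ± 0.113 FPKM (mean ± SD, n = 4 diestrus and 3 estrus libraries, here and below). The other genes of the 15 were Cxcl15, Ihh, Hdc and the cell division genes Top2a, Pbk, Prc1 and cyclin Ccna2, the last with 19.8, 22.4, 19.5 and 18.6 FPKM at diestrus and 1.78, 0.975 and 1.43 at estrus.

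**Figure D3:**
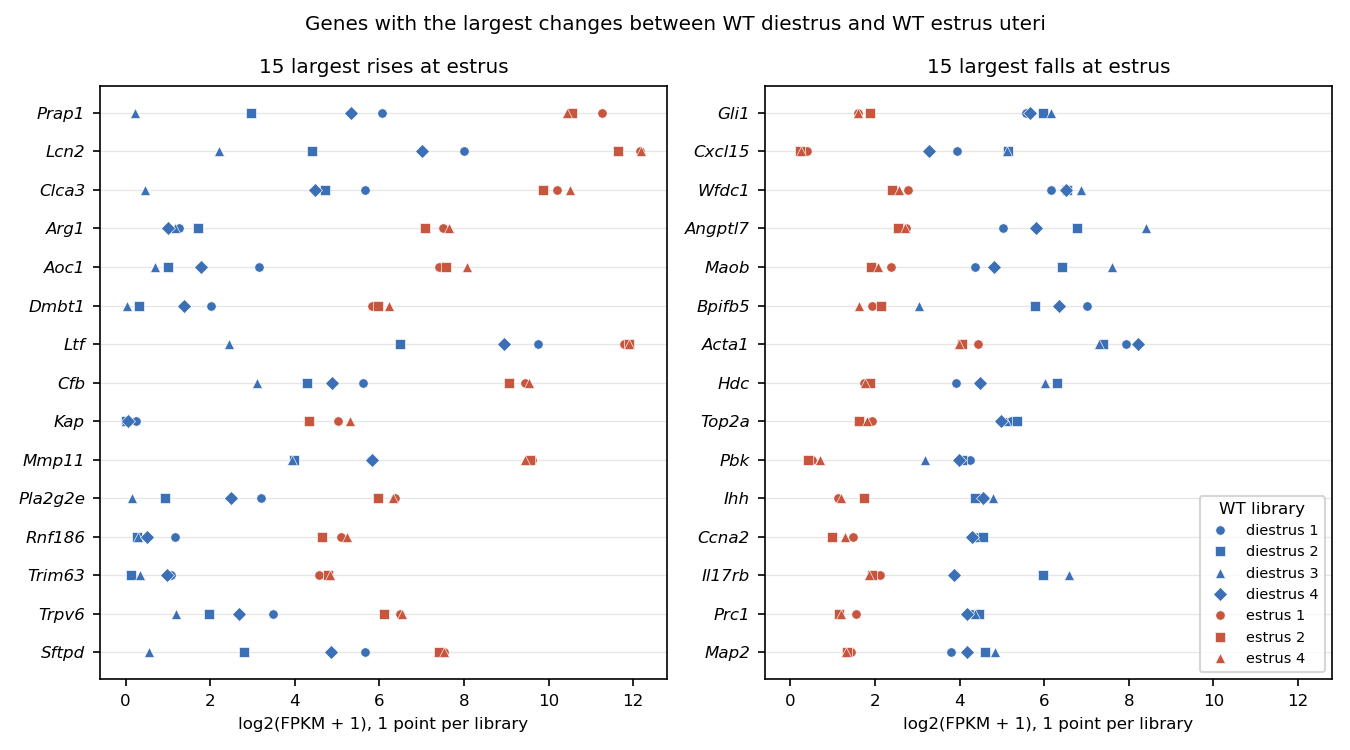
Log2(FPKM + 1) of the 15 largest rises (left) and the 15 largest falls (right) at estrus, with 1 point per WT library, diestrus in blue and estrus in red. The estrus libraries lie together for each gene, and diestrus 3 is the lowest point in Prap1, Lcn2 and Ltf.

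Of the receptors for the ovarian steroids, Esr1 did not pass the test and Pgr fell. Esr1 read 89.3, 88.8, 74.8 and 82.5 FPKM at diestrus and 82.6, 90.6 and 92.4 at estrus (adjusted p = 0.441), with overlapping stages. Pgr read 72, 106, 63.7 and 56.5 FPKM at diestrus and 25, 29.9 and 29.2 at estrus (log2 difference -1.34, SE 0.2, adjusted p = 0.00117), and its 3 estrus values were below all 4 diestrus values. The mineralocorticoid receptor Nr3c2 did not pass (adjusted p = 0.96). The glucocorticoid receptor Nr3c1 fell from 18.5 ± 0.635 to 15 ± 0.0843 FPKM. Greb1, a target of the estrogen receptor, overlapped between the stages with 10.6, 12, 5.87 and 6.8 FPKM at diestrus and 8.78, 10.2 and 10.6 at estrus (adjusted p = 0.499). The vitamin D receptor Vdr rose, with 1.19, 0.977, 1.37 and 1.35 FPKM at diestrus and 4.31, 3.78 and 5.07 at estrus. Its diestrus values were near 1 FPKM in all 4 libraries. Among 33 measured nuclear receptors 13 were higher and 7 lower. Vdr, Nr1d1 and Pgr were among those that changed by at least 2-fold on the log2(FPKM + 1) scale.

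Enzymes that set the local supply of steroids moved in both directions. Hsd11b2, which inactivates glucocorticoids, read 224, 327, 255 and 222 FPKM at diestrus and 33.5, 32.4 and 36 at estrus (log2 difference -2.87, SE 0.14, adjusted p = 1.95e-05). Hsd11b1, which regenerates them, read 5.21, 2.19, 3.68 and 4.74 FPKM at diestrus and 12.5, 16.1 and 13.2 at estrus (log2 difference 1.63, SE 0.23, adjusted p = 8.75e-04). The stages were apart in both genes, lower at estrus in the first and higher in the second. Hsd17b2, which oxidises estradiol to estrone, went from 0.127, 0.168, 0.073 and 0.103 FPKM at diestrus to 3.98, 2.68 and 3.19 at estrus. Hsd17b11, a related dehydrogenase, rose from 62.4 ± 4.15 to 132 ± 7.67 FPKM. Both co-chaperones of steroid receptors in the list fell, Fkbp5 from 11.8 ± 1.86 to 4.66 ± 0.413 FPKM and Fkbp4 from 200.4 ± 47.3 to 89.4 ± 2.16 FPKM. The 5-alpha reductase Srd5a2 rose, with 1.35, 0.385, 0.07 and 0.554 FPKM at diestrus and 2.79, 2.2 and 3.71 at estrus, while Srd5a1 fell from 2.93 ± 0.369 to 2.01 ± 0.0185 FPKM. Cyp11a1, the side-chain cleavage enzyme of steroid-making tissues, was below the filter, at most 0.669 FPKM. Of 23 measured steroid enzymes and cofactors 9 were higher, 5 by at least 2-fold, and 6 lower.

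The series is about the hypoxia-inducible factor HIF2A, encoded by Epas1. Epas1 read 31.9, 32.7, 43.5 and 31.2 FPKM at diestrus and 34.2, 31.2 and 33.3 at estrus (adjusted p = 0.648), with diestrus 3 above the other 6 libraries. Its paralog Hif1a read 51.8, 86.9, 61.3 and 54 FPKM at diestrus and 38.6, 44.3 and 43.6 at estrus (log2 difference -0.55, SE 0.17, adjusted p = 0.0284). That call was lost without estrus 1, estrus 2 or estrus 4 (adjusted p = 0.0615 to 0.0966) and with median-of-ratios scaling (adjusted p = 0.0566). Egln3, a prolyl hydroxylase that marks HIF proteins for destruction and is induced by them, read 4.03, 3.28, 1.9 and 3.87 FPKM at diestrus and 33.4, 26.9 and 30.2 at estrus (log2 difference 2.90, SE 0.19, adjusted p = 5.98e-05). Ankrd37, a known hypoxia target, read 0.846, 1.06, 0.853 and 0.647 FPKM at diestrus and 10.2, 7.02 and 7.88 at estrus. In both genes all diestrus values were far below estrus. The mitophagy gene Bnip3 rose from 18.6 ± 1.31 to 38.1 ± 1.4 FPKM with little spread, and Ndrg1, a stress-response gene, read 20.5, 21.4, 40.3 and 20.7 FPKM at diestrus and 82, 78 and 79.5 at estrus, with diestrus 3 apart from the other diestrus libraries. Other targets overlapped between the stages, among them the glycolytic genes Ldha (adjusted p = 0.944) and Pgk1 (adjusted p = 0.938), the angiogenic factor Vegfa (adjusted p = 0.245) and the vasodilator Adm (adjusted p = 0.852). Of 42 measured members of the list 18 were higher, 6 by at least 2-fold, and 3 lower, with a median of 0.12 log2.

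The hedgehog ligand Ihh, its receptor Ptch1 and its target Gli1 were all lower at estrus. Ihh, the epithelial ligand (chr1:74945315-74951672, - strand), read 23, 19.6, 26.8 and 22.5 FPKM at diestrus and 1.17, 2.35 and 1.31 at estrus (log2 difference -3.22, SE 0.17, adjusted p = 2.59e-05). Ptch1, the receptor and itself a target, read 54.6, 44.9, 61.9 and 56 FPKM at diestrus and 14.2, 15.3 and 14.4 at estrus. The stages were wide apart in both genes. Hhip, which traps the ligand, read 2.84, 8.82, 8.43 and 2.41 FPKM at diestrus and 0.06, 0.044 and 0.033 at estrus, with diestrus 2 and 3 the high ones and all estrus values near 0. The transducer Smo was higher by a small amount, from 46.8 ± 3.4 to 57.3 ± 1.74 FPKM, Gli2 did not pass (adjusted p = 0.106) and Gli3 fell from 6.39 ± 0.971 to 3.35 ± 0.288 FPKM. The stromal factors of the progesterone response fell by less than Gli1. Nr2f2, a hedgehog target in stroma, fell from 69 ± 8.49 to 38 ± 1.79 FPKM, and Hand2, which restrains growth factors in stroma, from 33 ± 7.75 to 14.7 ± 0.144 FPKM. Il13ra2, a decoy receptor for interleukin 13, read 2.91, 12.1, 20.9 and 3.22 FPKM at diestrus and 0.109, 0.082 and 0.015 at estrus. Fst, which binds activin, read 4.13, 10.1, 43.2 and 6.84 FPKM at diestrus and 1.7, 1.28 and 0.73 at estrus, with diestrus 3 far above the others, and its call was lost without estrus 4 (adjusted p = 0.0586). Gata2 (70.6 ± 9.6 to 42.6 ± 3.82 FPKM), which works with the progesterone receptor, fell as well. The list of progesterone and hedgehog genes had 20 of 32 measured members lower, 13 by at least 2-fold, and 3 higher, with a median of -0.73 log2.

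Homeobox genes that pattern the uterus were more often lower than higher. Hoxa10, needed for implantation, read 183, 129.7, 186 and 219 FPKM at diestrus and 62.5, 64.6 and 65.2 at estrus (log2 difference -1.45, SE 0.16, adjusted p = 3.67e-04). Its neighbour Hoxa11 read 103, 83, 147 and 129 FPKM at diestrus and 38, 33 and 34.5 at estrus (log2 difference -1.66, SE 0.18, adjusted p = 3.56e-04). In both genes diestrus 2 was the lowest diestrus library and still above estrus. Hoxd11 fell from 19.1 ± 1.9 to 7.53 ± 0.723 FPKM. Hoxa13, a gene of the lower tract, was at most 0.099 FPKM. Msx2 overlapped between the stages (adjusted p = 0.0881). Of 20 measured patterning factors 10 were lower, 4 by at least 2-fold, and 4 higher, none by 2-fold.

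Secreted defence proteins rose, from diestrus values that were graded. Lactoferrin Ltf (chr9:111019271-111042767, + strand), an iron-binding protein of uterine fluid, read 866, 88.7, 4.48 and 493 FPKM at diestrus and 3508, 3825 and 3841 at estrus (log2 difference 4.95, SE 1.6, adjusted p = 0.0303). The 3 estrus values were close together, whereas diestrus 1 was high and diestrus 3 near 0. The call was lost without diestrus 2, estrus 1, estrus 2 or estrus 4 (adjusted p = 0.0667 to 0.0795). Surfactant protein Sftpd, a lectin, read 49.7, 5.94, 0.462 and 27.8 FPKM at diestrus and 184, 169.98 and 184 at estrus, and its call was lost without estrus 1 or estrus 4 (adjusted p = 0.0501 to 0.0521). Pglyrp1, which binds bacterial peptidoglycan, read 60.8, 13.7, 10.4 and 37.7 FPKM at diestrus and 417, 348 and 451 at estrus (log2 difference 4.00, SE 0.56, adjusted p = 9.11e-04). Pigr, the receptor that carries immunoglobulin A across the epithelium, read 77.2, 43.8, 9.56 and 42 FPKM at diestrus and 425, 407 and 491 at estrus. Diestrus 1 was the highest and diestrus 3 the lowest of the 4 in each of these 4 genes. The protease inhibitor Wfdc2 rose from 267 ± 63.6 to 493 ± 31.8 FPKM. The lipopolysaccharide-binding protein Lbp fell, with 130.4, 205, 150.1 and 98 FPKM at diestrus and 65.5, 58.8 and 55.4 at estrus (log2 difference -1.22, SE 0.22, adjusted p = 0.00286). Of 27 members found, 12 were below the filter, such as the antimicrobial peptide Camp (at most 0.093 FPKM). Of the 15 measured, 12 were higher, 9 by at least 2-fold, and 2 lower, with a median of 1.49 log2 against -0.09 over all genes tested. The list is wider than its name. It also counts the epithelial transcription factor Elf3, the receptor Pigr and markers shared with the macrophage list, each higher. A shared marker is the median member.

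Mucins and the enzymes that glycosylate them were higher too. Muc4, a membrane mucin, read 4.41, 2.41, 0.162 and 3.45 FPKM at diestrus and 48.5, 32.3 and 38.9 at estrus (log2 difference 3.69, SE 0.49, adjusted p = 7.44e-04). Muc1, the mucin that coats the lumen, read 34.9, 14.5, 6.49 and 19.9 FPKM at diestrus and 111, 89.4 and 103 at estrus (log2 difference 2.56, SE 0.46, adjusted p = 0.00267). Diestrus 3 was the lowest library in both genes, and estrus lay above every diestrus library. Muc13, below the filter, stood at 0.066, 0, 0.012 and 0.007 FPKM at diestrus and 0.867, 0.828 and 1.49 at estrus. The fucosyltransferase Fut9 read 5.06, 3.9, 1.08 and 3.02 FPKM at diestrus and 14.7, 16.5 and 20.4 at estrus, and Fut2, which makes blood group antigens in secretions, 8.64, 22.6, 12 and 7.68 FPKM at diestrus and 38.1, 31.7 and 36.6 at estrus. Fut2 was highest in diestrus 2 among the 4, unlike the mucins. Fut4 overlapped between the stages (adjusted p = 0.716). Galnt3, which starts mucin glycosylation, rose from 4.14 ± 1.62 to 13.4 ± 1.72 FPKM and B3gnt3, which extends the chains, from 2.92 ± 1.12 to 11.8 ± 1.54 FPKM. Of 19 measured members 15 were higher, 13 by at least 2-fold, and 2 lower, with a median of 1.52 log2.

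Keratins and junction genes of the luminal epithelium were higher at estrus. Keratin Krt7 read 42.1, 37.8, 21.2 and 33.1 FPKM at diestrus and 118, 102 and 113 at estrus (log2 difference 1.74, SE 0.21, adjusted p = 5.21e-04). Elf3, an epithelial transcription factor, read 36.6, 38.7, 15.6 and 26.7 FPKM at diestrus and 173, 146 and 185 at estrus. In both genes diestrus 3 was the lowest library. The factors Ehf (adjusted p = 0.602) and Grhl2 (adjusted p = 0.268), which also mark epithelium, overlapped between the stages. Of 24 luminal markers 16 were higher, 9 by at least 2-fold, and 0 lower, and 10 were higher without estrus 1. Their summed level was 1034, 996, 743 and 819 FPKM at diestrus and 2078, 1735 and 1888 at estrus, and its part in the rises of epithelial genes was not tested. Among claudins, the sealing proteins of tight junctions, Cldn7 rose from 38.6 ± 10.6 to 102 ± 11.6 FPKM and Cldn4 from 13 ± 3.6 to 33.8 ± 10.9 FPKM. Cldn8 fell, with 10.8, 5.57, 7.14 and 6.52 FPKM at diestrus and 1.9, 2.61 and 1.74 at estrus (log2 difference -1.44, SE 0.2, adjusted p = 9.29e-04), and Cldn3 did not pass (adjusted p = 0.327). The scaffold Tjp3 read 10.8, 6.29, 5.31 and 7.76 FPKM at diestrus and 39, 32.3 and 39.1 at estrus (log2 difference 2.18, SE 0.2, adjusted p = 1.86e-04). The gap junction gene Gjb2 read 39.9, 11.9, 1.34 and 24.2 FPKM at diestrus and 99.8, 90.2 and 99.5 at estrus, graded at diestrus as Ltf was, and its call was lost without diestrus 2, estrus 1, estrus 2 or estrus 4 (adjusted p = 0.0531 to 0.0713). Of 29 measured junction genes 19 were higher, 7 by at least 2-fold, and 2 lower.

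Among small proline-rich proteins, which are crosslinked into the envelope of cornified cells, Sprr2f and Sprr1a rose, as did the deiminases Padi1 and Padi4. Sprr2f, a small proline-rich protein induced by estrogen in the uterus, read 536, 661, 183 and 309 FPKM at diestrus and 3865, 2322 and 3059.5 at estrus (log2 difference 3.00, SE 0.44, adjusted p = 0.00108). The Sprr2 genes are near-identical and can share reads, so the level of Sprr2f is uncertain in that respect. Sprr2g overlapped between the stages (adjusted p = 0.638), and so did Sprr2e, below the filter, with 0.251, 0.929, 0.432 and 0.394 FPKM at diestrus and 1.2, 0.289 and 0.255 at estrus. Sprr1a read 0.355, 1.26, 0.774 and 0.672 FPKM at diestrus and 18.1, 6.66 and 12.2 at estrus. The deiminase Padi1, which turns arginine residues into citrulline, read 19.3, 40.1, 14.8 and 9.67 FPKM at diestrus and 145, 119 and 171 at estrus, with diestrus 2 the highest of the 4. Padi4, its relative of leukocytes, rose from 2.96 ± 1.69 to 21.2 ± 3.24 FPKM. Loricrin and involucrin, also of that envelope, were low. Loricrin Lor stood at 0.6, 0.735, 1.01 and 0.696 FPKM at diestrus and 0.422, 0.549 and 0.43 at estrus, and involucrin Ivl was at most 0.138 FPKM in the 7 libraries, beside the low Krt5 and Krt14 given above, and 2 of 5 measured squamous markers were higher.

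Channels and transporters of ions and water moved in both directions. Carbonic anhydrase Car2, which supplies bicarbonate, read 66.5, 35.7, 26.2 and 33.3 FPKM at diestrus and 318, 254 and 361 at estrus (log2 difference 2.99, SE 0.29, adjusted p = 2.19e-04). The anion exchanger Slc26a4 stood at 0.124, 0.016, 0.314 and 0.126 FPKM at diestrus and 2.77, 1.68 and 2.85 at estrus. Both were higher in every estrus library. The epithelial sodium channel subunits parted. Scnn1b rose from 4.57 ± 1.5 to 14 ± 2.04 FPKM. Scnn1a read 6.49, 2.73, 2.37 and 6.17 FPKM at diestrus and 1.22, 1.54 and 1.33 at estrus, and its fall was no longer called without estrus 1 or estrus 4 (adjusted p = 0.0504 to 0.0564). Of the water channels, Aqp1, of vessels, rose from 136 ± 28.7 to 292 ± 22.8 FPKM. Aqp5, of glands, read 21.3, 22.2, 2.15 and 11.8 FPKM at diestrus and 47.1, 43.6 and 51.2 at estrus, with diestrus 3 the lowest, and its call was lost without diestrus 4, estrus 1, estrus 2 or estrus 4 (adjusted p = 0.0563 to 0.089). Aqp11 fell from 5.94 ± 2.37 to 1.63 ± 0.228 FPKM. The chloride channel Cftr read 8.1, 2.01, 0.28 and 6.34 FPKM at diestrus and 12.6, 13.3 and 13.9 at estrus, again graded at diestrus, and its call was lost without diestrus 2, estrus 1, estrus 2 or estrus 4 (adjusted p = 0.0886 to 0.0999). The regulator Fxyd3 read 71.4, 89.2, 74.5 and 44.2 FPKM at diestrus and 359, 252 and 309.96 at estrus, against the falling sodium pump subunit Atp1b1 (54.8 ± 18.1 to 27.1 ± 1.31 FPKM). Of 24 measured members 14 were higher, 12 by at least 2-fold, and 5 lower, with a median of 1.05 log2.

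Gland genes did not move as one. Foxa2, the transcription factor that uterine glands need, read 9.88, 9.12, 9.97 and 6.28 FPKM at diestrus and 3.67, 3.85 and 3.61 at estrus (log2 difference -1.04, SE 0.15, adjusted p = 9.51e-04). Cxcl15, a chemokine of gland secretion, read 14.3, 34.3, 33.9 and 8.68 FPKM at diestrus and 0.303, 0.176 and 0.181 at estrus (log2 difference -4.08, SE 0.45, adjusted p = 3.44e-04). Both were lower in every estrus library, and in Cxcl15 diestrus 2 and 3 were far above diestrus 1 and 4. Prom1, a membrane protein of gland and lumen, rose, with 45, 44.6, 33.2 and 32.6 FPKM at diestrus and 126, 130.2 and 150.3 at estrus. The phospholipase Gdpd3 rose from 66.5 ± 18.5 to 171 ± 7.33 FPKM. Aldh1a1, a retinal dehydrogenase, read 89, 53.5, 12.8 and 78 FPKM at diestrus and 19.8, 17.8 and 17.1 at estrus and did not pass (adjusted p = 0.095), since diestrus 3 lay below the estrus values and the other 3 above. Of 13 measured gland genes 3 were lower and 2 higher, and without diestrus 3 the lower count was 5.

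Every measured gene of mitosis and G2/M was lower at estrus, 50 of 50, and 48 by at least 2-fold, with a median of -2.11 log2. The shares of all genes tested were 33.7% and 5.51%. The count was 50 in each alternative that tested all 50 genes and without each library in turn, except the test against a minimum change of 1.5-fold (47). Mki67, the marker of cycling cells, read 11.8, 11.6, 11.7 and 11.1 FPKM at diestrus and 1.19, 0.86 and 0.957 at estrus (log2 difference -2.65, SE 0.079, adjusted p = 1.11e-05). The 4 diestrus values were close together, unlike those of Ltf or Lcn2. Topoisomerase Top2a, which untangles sister chromatids, read 35.9, 39.7, 33.4 and 30.6 FPKM at diestrus and 2.8, 2.06 and 2.49 at estrus (log2 difference -3.38, SE 0.11, adjusted p = 1.11e-05). Cyclin Ccnb2 read 16.4, 14.9, 15.7 and 14.7 FPKM at diestrus and 1.61, 1.08 and 1.46 at estrus. The mitotic kinase Cdk1 read 14, 14.2, 11.1 and 11.7 FPKM at diestrus and 1.35, 0.915 and 0.859 at estrus. At estrus all 3 were low in every library. The kinase Pbk read 18, 15.7, 8.11 and 14.8 FPKM at diestrus and 0.421, 0.328 and 0.635 at estrus, with diestrus 3 the lowest at diestrus. The spindle genes Birc5 (20.3 ± 1.93 to 1.77 ± 0.472 FPKM), Aurka (7.34 ± 0.51 to 0.929 ± 0.0181 FPKM) and Prc1 (19 ± 1.76 to 1.47 ± 0.383 FPKM) fell too. Foxm1, a transcription factor of the G2/M program, fell from 5.98 ± 0.58 to 1.24 ± 0.0836 FPKM (-1.63 log2, adjusted p = 2.93e-05), and Mybl2, another, from 2.26 ± 0.616 to 0.471 ± 0.16 FPKM (-1.14 log2, adjusted p = 1.00e-03).

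Promoters of mitotic genes are known for a pair of short elements, the CHR (TTTGAA), bound by the DREAM and MuvB complexes, and the CCAAT box (CCAAT), bound by NF-Y. They are shown for 3 of the genes whose fall is given above. The stretches run from 230 bases before to 20 bases after the RefSeq start, on GRCm38.p6, 5′ to 3′, and capitals mark both elements on either strand.
Top2a, chr11:99024170-99024419, - strand: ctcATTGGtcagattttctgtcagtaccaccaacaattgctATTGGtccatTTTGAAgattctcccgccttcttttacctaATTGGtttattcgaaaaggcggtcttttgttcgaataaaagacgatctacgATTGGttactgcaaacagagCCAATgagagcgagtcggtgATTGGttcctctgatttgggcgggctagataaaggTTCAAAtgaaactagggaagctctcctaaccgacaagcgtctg
Ccnb2, chr9:70421535-70421784, - strand: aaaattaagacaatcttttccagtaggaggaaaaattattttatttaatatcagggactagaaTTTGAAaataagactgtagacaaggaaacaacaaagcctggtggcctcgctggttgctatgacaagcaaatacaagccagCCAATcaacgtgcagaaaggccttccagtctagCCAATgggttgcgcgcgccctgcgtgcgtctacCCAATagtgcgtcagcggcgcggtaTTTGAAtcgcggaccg
Cdk1, chr10:69352893-69353142, - strand: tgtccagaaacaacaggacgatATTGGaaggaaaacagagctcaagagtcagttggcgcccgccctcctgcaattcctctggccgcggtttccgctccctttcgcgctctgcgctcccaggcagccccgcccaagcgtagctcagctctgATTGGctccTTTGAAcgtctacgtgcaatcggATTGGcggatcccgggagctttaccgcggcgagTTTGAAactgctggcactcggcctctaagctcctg
In the RefSeq promoters, searched from 250 bases before to 50 after the start, the CHR letters were found in 29 of 41 mitosis genes that had an entry (70.7%), in 14% of 10010 tested genes with an entry and in 17.9% of 32851 promoters. Among genes at least 2-fold lower at estrus they were in 23.6%, and among genes at least 2-fold higher in 15.3%. Most of the mitosis genes are themselves at least 2-fold lower and were not taken out of the first share. The CCAAT letters were in 30 of 41 mitosis genes (73.2%), in 42.5% of the tested genes and in 37.4% of all promoters. A match describes the letters and is not a binding site.

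Genes of DNA replication fell with those of mitosis. The helicase subunit Mcm6, which unwinds DNA, read 35, 40.4, 22.6 and 25 FPKM at diestrus and 6.41, 4.13 and 4.64 at estrus (log2 difference -2.37, SE 0.22, adjusted p = 1.84e-04). Diestrus 2 was the highest and diestrus 3 the lowest of the 4. Thymidine kinase Tk1 read 17, 20.3, 14.5 and 13.4 FPKM at diestrus and 2.48, 1.11 and 1.06 at estrus, and Rrm2, the ribonucleotide reductase subunit that makes deoxynucleotides, 14.1, 18.3, 15.2 and 11 FPKM at diestrus and 1.99, 1.51 and 1.68 at estrus. Cyclin Ccne1, which opens S phase, fell from 5.84 ± 1.1 to 0.534 ± 0.169 FPKM. The sliding clamp Pcna fell from 106 ± 23 to 41 ± 1.48 FPKM, so that a larger share of its diestrus level remained than for Tk1. Uhrf1, which brings the maintenance methyltransferase to new DNA, fell from 18.4 ± 5.1 to 2.6 ± 0.585 FPKM. Of 49 measured genes 45 were lower, 33 by at least 2-fold, and 0 higher, with a median of -1.32 log2. Among the 4 not called, E2f2 stood at 1.96 ± 0.362 and 1.39 ± 0.052 FPKM (adjusted p = 0.0544).

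The D cyclins, which drive G1, fell and several brakes on the cycle rose. Ccnd1 (45.6 ± 8.27 to 21.6 ± 1.86 FPKM), Ccnd2 (18.1 ± 3.27 to 6.11 ± 0.879 FPKM) and Ccnd3 (44.9 ± 4.98 to 24.5 ± 1.73 FPKM) all fell. Gadd45b, a growth arrest gene, read 8.65, 5.68, 5.02 and 8.92 FPKM at diestrus and 49.7, 49.8 and 48.5 at estrus (log2 difference 2.68, SE 0.18, adjusted p = 6.59e-05). The CDK4 inhibitor Cdkn2b read 0.723, 0.559, 0.305 and 0.594 FPKM at diestrus and 2.82, 2.58 and 3.03 at estrus. In both genes the estrus values were close together and far above diestrus. Gadd45a rose from 29 ± 10.9 to 75.1 ± 1.72 FPKM and Gadd45g overlapped (adjusted p = 0.738). Ccng2 (17.1 ± 2.91 to 38.9 ± 0.754 FPKM), Btg2 (29.4 ± 4.08 to 51.9 ± 2.59 FPKM) and Trp53inp1 (18.2 ± 2.9 to 49 ± 2.75 FPKM), all antiproliferative, rose. The p53 target Cdkn1a did not pass (adjusted p = 0.173), nor did Trp53 (adjusted p = 0.054). Of 24 measured members 10 were higher, 4 by at least 2-fold, and 6 lower.

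Myc and Mycn, related transcription factors of growth, moved in opposite directions. Myc read 39.1, 42.7, 64.1 and 38.2 FPKM at diestrus and 23.8, 21.5 and 22.7 at estrus (log2 difference -0.96, SE 0.17, adjusted p = 0.00269). Mycn read 9.16, 5.52, 2.04 and 4.59 FPKM at diestrus and 20.8, 19 and 16.4 at estrus (log2 difference 1.76, SE 0.36, adjusted p = 0.00447). Diestrus 3 held the highest Myc and the lowest Mycn of the 4. Genes of ribosome biogenesis fell. Nop56, which guides methylation of ribosomal RNA, read 50.4, 67.3, 49.3 and 54.4 FPKM at diestrus and 20.7, 19.5 and 19.2 at estrus (log2 difference -1.43, SE 0.11, adjusted p = 9.08e-05), Dkc1, its pseudouridine counterpart, fell from 26.4 ± 3.73 to 8.91 ± 0.677 FPKM, and Polr1a, the large subunit of polymerase I, from 13 ± 1.37 to 5.9 ± 0.211 FPKM. Of 30 measured genes of this list, Myc and Mycn included, 24 were lower, 8 by at least 2-fold, and 2 higher, with a median of -0.78 log2. The 32 cytosolic ribosomal protein genes gave 0 calls in limma, with a median of -0.15 log2, and 2 of them had an unadjusted p under 0.05. Quantile normalization called 6 lower and 1 higher, and 3 were lower without diestrus 4. Rplp0, of the ribosomal stalk, read 945, 1249, 1503 and 887 FPKM at diestrus and 1155, 962 and 997 at estrus, with diestrus 3 the highest.

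The polyamine enzymes Srm, Amd1 and Odc1 and the serine enzymes Phgdh and Psat1 fell, while Smox and Sat1, which break polyamines down, rose. Spermidine synthase Srm read 57.5, 103, 75 and 69.7 FPKM at diestrus and 17.2, 15.4 and 16.6 at estrus (log2 difference -2.12, SE 0.17, adjusted p = 1.18e-04). Amd1, which supplies its aminopropyl donor, fell from 26.1 ± 2.43 to 13.5 ± 0.32 FPKM, and Odc1, the first enzyme of the pathway, from 38.7 ± 10.6 to 22.3 ± 2.26 FPKM. The catabolic enzyme Smox read 21.2, 18.4, 19.7 and 21.2 FPKM at diestrus and 53, 56.8 and 51.5 at estrus (log2 difference 1.38, SE 0.071, adjusted p = 2.59e-05), and Sat1, which marks polyamines for export, rose from 92.7 ± 8.64 to 219.9 ± 17.1 FPKM. The spread was small in both stages. Phgdh, the first enzyme of serine synthesis, read 23.6, 29, 25.3 and 22.8 FPKM at diestrus and 5.8, 4.75 and 4.61 at estrus (log2 difference -2.11, SE 0.11, adjusted p = 2.18e-05). Psat1, the next, fell from 26.9 ± 6.3 to 8.28 ± 1.29 FPKM, and Mthfd2, which moves serine carbon into folates, read 7.9, 22.3, 15.2 and 8.97 FPKM at diestrus and 2.12, 1.46 and 1.81 at estrus. Ass1, which makes argininosuccinate, rose from 5.26 ± 0.366 to 19.4 ± 3.84 FPKM, whereas Asl, the lyase that follows it, fell, with 25.5, 47.7, 73 and 30.5 FPKM at diestrus and 13.8, 12.2 and 13.6 at estrus. Arg2, the mitochondrial arginase, fell from 17.4 ± 9.51 to 7.19 ± 1.29 FPKM against the rise of Arg1, but its call was lost without estrus 1 or estrus 4 (adjusted p = 0.0819 to 0.0884). Of 29 measured members 12 were lower, 7 by at least 2-fold, and 7 higher, 5 by at least 2-fold, and the shares called in each direction were near those over all genes tested.

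Heat shock genes were more often lower than higher. Hspd1, the mitochondrial chaperonin, read 148, 215, 143 and 146 FPKM at diestrus and 62.8, 63.9 and 62.1 at estrus (log2 difference -1.34, SE 0.15, adjusted p = 3.29e-04). Hsph1, a co-chaperone of Hsp70, fell from 66.3 ± 19.9 to 21.9 ± 2.54 FPKM and Hsp90aa1 from 187 ± 35.5 to 80.9 ± 7.79 FPKM, while Hspb1 overlapped (adjusted p = 0.817). Of 15 heat shock genes 11 were lower and 1 higher, with 6 lower without estrus 2 and 7 with median-of-ratios scaling. In the unfolded protein response 12 of 25 were lower, none by 2-fold, and 1 higher, with 7 lower after median-of-ratios scaling, 3 without estrus 1 and 4 without estrus 2. Hsp90b1, a chaperone of the endoplasmic reticulum, fell from 332 ± 69 to 194 ± 17.1 FPKM. Of 33 genes of oxidative phosphorylation 15 were lower and 0 higher, with a median of -0.24 log2. Ndufs1, of complex I, fell from 41.8 ± 3.84 to 26.8 ± 1.35 FPKM. In cholesterol metabolism 12 of 31 were lower, a share near that over all genes tested, and 2 higher, with 5 higher without diestrus 2. The 2 higher ones were the exporters Abca1, with 22.2, 7.1, 16.4 and 23.4 FPKM at diestrus and 58.2, 70.1 and 56.7 at estrus, and Abcg1 (4.69 ± 2.54 to 17 ± 0.906 FPKM). In Abca1 diestrus 2 was the lowest library. The synthesis enzymes Sqle (11.8 ± 5.41 to 4.02 ± 0.259 FPKM) and Hmgcs1 (25 ± 4.75 to 14.7 ± 0.408 FPKM) fell.

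**Figure D4:**
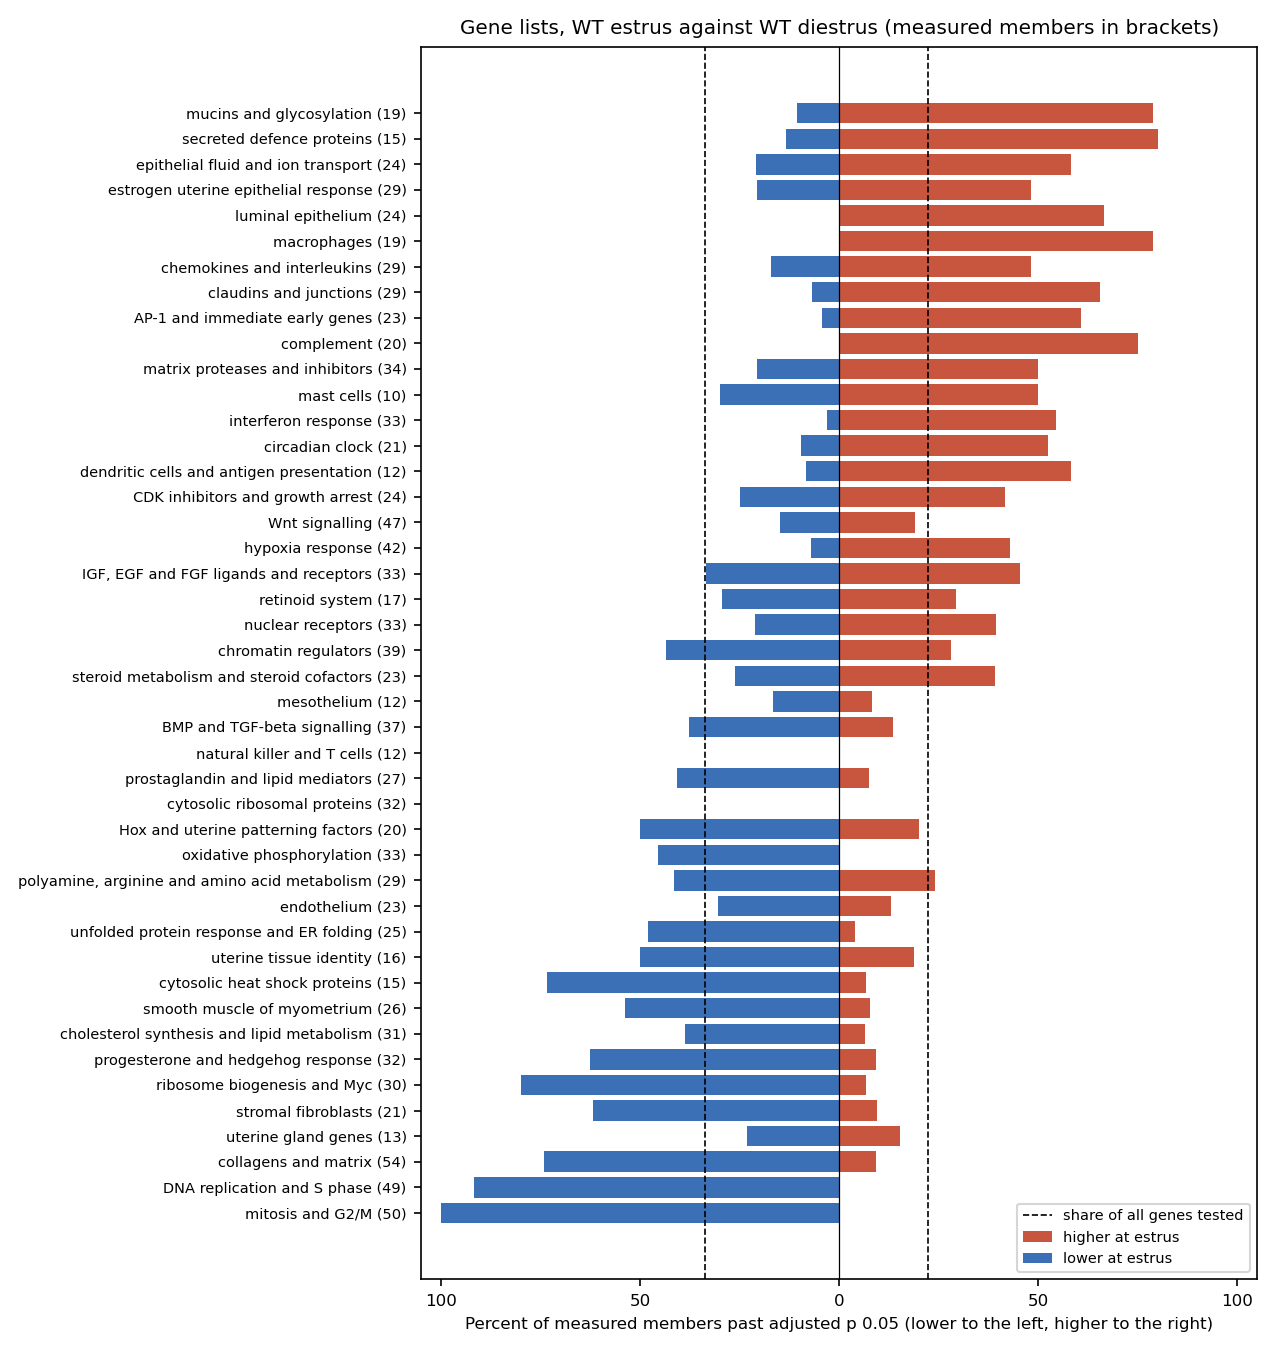
Percent of measured members called higher (red, right) or lower (blue, left) at estrus for each list with at least 10 measured members, ordered by median log2 difference. Dashed lines mark the shares of all genes tested, 22.3% higher and 33.7% lower, and mitosis (50 of 50 lower) and replication (45 of 49 lower) lie at the bottom.

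Genes of the extracellular matrix fell at estrus. Col6a2, of beaded filaments, read 682, 921, 686 and 692 FPKM at diestrus and 154, 137 and 159 at estrus (log2 difference -2.30, SE 0.13, adjusted p = 3.55e-05). Col1a1, the main fibrillar collagen, read 613, 1174, 1332 and 664 FPKM at diestrus and 321, 249 and 346 at estrus. Diestrus 2 was the highest in the first and diestrus 3 in the second, and the stages did not overlap. Col15a1, of basement membrane zones, read 28.6, 86.3, 141 and 35.7 FPKM at diestrus and 11, 9.29 and 10.8 at estrus. Vcan, a large proteoglycan, read 12.7, 21.2, 16.9 and 14.3 FPKM at diestrus and 1.94, 2.22 and 2.48 at estrus (log2 difference -2.41, SE 0.16, adjusted p = 6.33e-05). Fbn1, of microfibrils, fell from 32.9 ± 17.7 to 6.62 ± 0.257 FPKM and elastin Eln from 25.2 ± 7.43 to 6.49 ± 1.4 FPKM. Has2, which makes hyaluronan, stood at 1.11, 4.28, 7.5 and 1.41 FPKM at diestrus, highest in libraries 2 and 3, and at 0.097, 0.066 and 0.053 at estrus. A minority of the list rose. Lysyl oxidase Lox, which crosslinks collagen, read 35, 36.2, 54.1 and 38.2 FPKM at diestrus and 100.5, 118 and 116 at estrus (log2 difference 1.44, SE 0.15, adjusted p = 2.99e-04). Thbs1, a matricellular protein that activates TGF-beta, read 55.6, 54.2, 32.4 and 42.3 FPKM at diestrus and 157, 154 and 141 at estrus (log2 difference 1.72, SE 0.18, adjusted p = 2.96e-04). Decorin Dcn (adjusted p = 0.1) and periostin Postn (adjusted p = 0.977), both abundant, overlapped between the stages. Of 54 measured members 40 were lower, 31 by at least 2-fold, and 5 higher, with a median of -1.1 log2.

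Matrix proteases were more often higher than lower. Mmp11, a stromelysin of stroma, read 54.9, 14.8, 14.4 and 55.4 FPKM at diestrus and 784, 757 and 695 at estrus (log2 difference 4.66, SE 0.52, adjusted p = 3.56e-04). Mmp10 read 1.56, 0.318, 0.052 and 1.04 FPKM at diestrus and 11.8, 14.3 and 10.2 at estrus. In both genes diestrus 2 and 3 were the low libraries. Urokinase Plau, which activates plasminogen, read 10.6, 15, 13.2 and 9.54 FPKM at diestrus and 74.1, 73.6 and 79.6 at estrus (log2 difference 2.57, SE 0.14, adjusted p = 3.11e-05). The membrane protease Mmp14 rose from 206 ± 43.8 to 528 ± 28.2 FPKM, and the cathepsins Ctsk (56.1 ± 10.5 to 163 ± 9.37 FPKM) and Ctsl (149 ± 18.6 to 439 ± 54.5 FPKM) rose as well. Mmp7, an epithelial protease, read 25.5, 1.31, 0.317 and 15.8 FPKM at diestrus and 57.4, 36.1 and 50.6 at estrus, and its call was lost without diestrus 2, diestrus 3, estrus 1, estrus 2 or estrus 4 (adjusted p = 0.0549 to 0.11). The inhibitor Timp1 fell, with 11.5, 22.4, 28.2 and 11.3 FPKM at diestrus and 5.58, 3.94 and 5.22 at estrus, and Mmp19 fell from 38.2 ± 8.82 to 14.1 ± 0.414 FPKM. Of 34 measured members 17 were higher, 9 by at least 2-fold, and 7 lower, and 11 were higher without estrus 2.

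Stromal and muscle markers were more often lower than higher. Thy1, a surface protein of fibroblasts, read 96.7, 85.2, 130.1 and 101 FPKM at diestrus and 26.6, 25.5 and 29.5 at estrus (log2 difference -1.87, SE 0.14, adjusted p = 7.90e-05). Vimentin Vim read 339, 657, 892 and 343 FPKM at diestrus and 321, 277 and 307 at estrus and did not pass (adjusted p = 0.0967), with diestrus 1 and 4 just above estrus and 2 and 3 far above. Of 21 fibroblast markers 13 were lower, 11 by at least 2-fold, and 2 higher, and their sum was 3901, 4591, 5337 and 4211 FPKM at diestrus and 3066, 2883 and 3144 at estrus. Without estrus 1 or without estrus 4 the higher count was 0. Vcan and other matrix genes among the lower fibroblast markers also count in the matrix list, and Hoxa11, Nr2f2 and Hand2 were given above. Smooth muscle actin Acta2 read 1128, 1409, 1099 and 1397 FPKM at diestrus and 542, 577 and 618 at estrus (log2 difference -1.11, SE 0.14, adjusted p = 6.48e-04). Calponin Cnn1 fell from 383 ± 60.9 to 165 ± 26 FPKM and tropomyosin Tpm2 from 570.4 ± 79.5 to 239 ± 18.3 FPKM. Transgelin Tagln rose, with 1093, 1225, 992 and 1315 FPKM at diestrus and 2239, 1773 and 2085 at estrus (log2 difference 0.81, SE 0.17, adjusted p = 0.00487), and desmin Des (adjusted p = 0.273) and the myosin Myh11 (adjusted p = 0.126) overlapped. Of 26 smooth muscle markers 14 were lower, 7 by at least 2-fold, and 2 higher. Of 23 endothelial markers 7 were lower, a share near that over all genes tested, and 3 higher, none by 2-fold. The higher count was 0 without estrus 4 and 1 without estrus 1. Pecam1, which marks all endothelium, read 39.3, 46, 72 and 38.9 FPKM at diestrus and 47.9, 38.4 and 44.1 at estrus (adjusted p = 0.621), with diestrus 3 the highest. Of the ligands of the endothelial receptor Tie2, Angpt1 fell from 2.83 ± 0.763 to 0.635 ± 0.0551 FPKM and Angpt2 rose from 3.09 ± 0.365 to 4.45 ± 0.312 FPKM.

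In insulin-like growth factor signalling Igf1 and Igf2 fell while Igf1r and Insr rose. Igf1, the stromal ligand of uterine growth, read 78, 97.9, 174 and 104 FPKM at diestrus and 16.5, 16.6 and 15.7 at estrus (log2 difference -2.66, SE 0.24, adjusted p = 1.61e-04). Its receptor Igf1r read 5.69, 4.39, 6.04 and 6.33 FPKM at diestrus and 14.7, 15.3 and 13.5 at estrus (log2 difference 1.24, SE 0.11, adjusted p = 1.79e-04). Every diestrus value of Igf1 was above estrus and every one of Igf1r below. Igf2 fell from 5.18 ± 0.984 to 1.58 ± 0.182 FPKM and the insulin receptor Insr rose from 8.42 ± 1.28 to 15.4 ± 1.05 FPKM. Of the adaptors, Irs2 rose, with 2.19, 1.91, 1.24 and 2.31 FPKM at diestrus and 8.38, 8.81 and 9.21 at estrus (log2 difference 1.77, SE 0.14, adjusted p = 1.02e-04), and Irs1 fell from 16.4 ± 2.0 to 8.7 ± 0.982 FPKM. Of the binding proteins, Igfbp4 fell from 516 ± 40.5 to 172 ± 11.3 FPKM and Igfbp5 rose from 285 ± 84.1 to 547 ± 40.5 FPKM. Hepatocyte growth factor showed the same contrast, with the ligand Hgf falling from 7.75 ± 3.89 to 2.35 ± 0.156 FPKM and the receptor Met rising from 7.23 ± 1.62 to 16 ± 0.948 FPKM. Of the epidermal growth factor receptors, Egfr fell from 13.6 ± 2.33 to 6.65 ± 0.755 FPKM and Erbb3 rose from 4.79 ± 0.644 to 13 ± 0.257 FPKM, with the ligand Hbegf (4.37 ± 1.39 to 16.6 ± 1.84 FPKM). Lifr, the receptor of leukemia inhibitory factor, rose from 3.54 ± 0.23 to 8.88 ± 0.737 FPKM. Of 33 measured ligands and receptors 15 were higher and 11 lower.

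Wnt and BMP genes moved singly. Wnt5a, a stromal ligand, read 58.5, 72.5, 47.5 and 57.2 FPKM at diestrus and 21.9, 22.4 and 21.3 at estrus (log2 difference -1.37, SE 0.13, adjusted p = 1.86e-04). Wnt7b, an epithelial ligand, read 1.64, 0.356, 0.046 and 1.18 FPKM at diestrus and 2.94, 4.55 and 3.94 at estrus, with diestrus 2 and 3 the low ones, as in Wnt4. The transcription factor Lef1 fell from 8.97 ± 1.91 to 3.43 ± 0.493 FPKM. Axin2, the common target, went from 18.5 ± 4.32 to 24.2 ± 2.79 FPKM, with estrus 4 below diestrus 1, and did not pass (adjusted p = 0.0946). The agonist Rspo3 rose from 46 ± 13.1 to 93.7 ± 8.81 FPKM and beta-catenin Ctnnb1 from 322 ± 34.4 to 577 ± 27.8 FPKM. Of 47 measured Wnt genes 9 were higher and 7 lower, both below the shares over all genes tested. The ligand Bmp7 fell from 14 ± 2.46 to 3.95 ± 1.09 FPKM and the antagonist Nog from 4.8 ± 2.08 to 0.687 ± 0.177 FPKM, and Id1, a target, fell from 48.4 ± 5.14 to 27.1 ± 4.75 FPKM. Of 37 BMP and TGF-beta genes 14 were lower and 5 higher, with 2 higher without estrus 1 and 3 without estrus 2.

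Macrophage markers were higher at estrus. Csf1r, the receptor macrophages need to survive, read 26, 17.1, 18.6 and 26.1 FPKM at diestrus and 49, 46.3 and 46.5 at estrus (log2 difference 1.09, SE 0.15, adjusted p = 9.37e-04). The stages did not overlap in Csf1r, and its estrus values were close together. Il34, a ligand of Csf1r, rose from 1.23 ± 0.451 to 3.96 ± 0.997 FPKM. The mannose receptor Mrc1 overlapped (adjusted p = 0.647). Of 19 measured markers 15 were higher, 3 by at least 2-fold, and 0 lower, and 9 were higher without estrus 1 or without estrus 2. They summed to 838, 583, 711 and 806 FPKM at diestrus and 1299, 1168 and 1163 at estrus. Of 12 genes of dendritic cells and antigen presentation 7 were higher and 1 lower, with 4 higher without estrus 1, and H2-Ab1, a class II chain, rose from 73.5 ± 5.65 to 119 ± 11.4 FPKM. Of 18 neutrophil markers found, 14 were below the filter. Of the 4 measured, 3 were higher at estrus, with 2 higher without diestrus 2, diestrus 3 or any 1 estrus library. Retnlg, a resistin-like protein, rose from 31 ± 5.2 to 83.1 ± 17.7 FPKM, and the gelatinase Mmp9 from 4.53 ± 1.35 to 9.24 ± 2.35 FPKM. Csf3r, the receptor of granulocyte colony-stimulating factor, rose from 1.29 ± 0.584 to 2.29 ± 0.157 FPKM, but its call was lost without diestrus 2, diestrus 3, estrus 1, estrus 2 or estrus 4 (adjusted p = 0.0598 to 0.111). S100a9 overlapped between the stages (adjusted p = 0.156), and S100a8, its partner, below the filter, stood at 3.98, 1.51, 0.824 and 0.493 FPKM at diestrus and 0.393, 0.888 and 0.809 at estrus, highest in diestrus 1. The eosinophil granule genes Epx and Prg2 were at most 0.037 FPKM, while Ccr3, a chemokine receptor of eosinophils, rose from 2.23 ± 0.328 to 4.79 ± 0.589 FPKM. Of 10 genes in the mast cell list 5 were higher and 3 lower, with 2 higher without estrus 4. The 5 higher genes were all mast cell proteases. The 3 lower genes were Hdc, the ligand of Kit, and Gata2, given above with the progesterone receptor. The mast cell carboxypeptidase Cpa3 rose from 11.7 ± 2.15 to 19.5 ± 3.53 FPKM, and Hdc, given above, fell.

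Natural killer genes set diestrus 3 apart. Granzyme Gzmb, which kills target cells, read 1.73, 15.7, 77.6 and 3.52 FPKM at diestrus and 4.29, 2.83 and 3.6 at estrus. Gzma read 1.24, 2.52, 56 and 1.37 FPKM at diestrus and 2.77, 2.4 and 2.62 at estrus. The receptor Ncr1, which defines natural killer cells, read 3.54, 4.05, 21.2 and 3.37 FPKM at diestrus and 3.56, 2.87 and 3.37 at estrus. Diestrus 3 was the highest library in all 3 genes, and diestrus 2 was second in Gzmb. None of 12 measured natural killer and T cell markers was called, 0 in limma at an adjusted p under 0.05, and 0 had an unadjusted p under 0.05. Without diestrus 3, 6 were higher at estrus. Il15, the cytokine that natural killer cells need, read 6.56, 13, 11.7 and 6.88 FPKM at diestrus and 3.15, 2.66 and 2.79 at estrus (log2 difference -1.39, SE 0.23, adjusted p = 0.00189), with diestrus 2 and 3 the high ones.

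Complement genes rose. Factor B, Cfb, which starts the alternative pathway, read 47.7, 18.6, 7.65 and 28.7 FPKM at diestrus and 695, 533 and 748 at estrus (log2 difference 4.88, SE 0.52, adjusted p = 3.08e-04). The protease Cfi, which cuts activated complement, read 39.5, 12, 3.95 and 23.2 FPKM at diestrus and 127, 128 and 123 at estrus. Both were graded at diestrus, highest in diestrus 1 and lowest in diestrus 3. Serping1, the inhibitor of C1, rose from 331 ± 51.3 to 779 ± 82.8 FPKM without that grading. Of 20 measured complement genes 15 were higher, 6 by at least 2-fold, and 0 lower. The higher ones include the chains of C1q, which also count among the macrophage markers above.

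Interferon-induced genes were more often higher than lower. Irf7, the transcription factor that amplifies the response, read 5.01, 3.52, 5.77 and 5.39 FPKM at diestrus and 25.2, 21.8 and 17.9 at estrus (log2 difference 1.94, SE 0.16, adjusted p = 1.31e-04). Ifit3, which binds viral RNA complexes, read 0.98, 0.741, 1.34 and 1.19 FPKM at diestrus and 5.72, 4.2 and 3.64 at estrus. Oas1a, an oligoadenylate synthetase, read 3.51, 2.77, 3.6 and 3.29 FPKM at diestrus and 9.6, 6.88 and 7.6 at estrus. In all 3 genes the diestrus libraries were close together, diestrus 2 was the lowest, and estrus 1 was the highest of all. Ifit2 rose from 4.43 ± 0.354 to 13.8 ± 0.904 FPKM and Oas2 from 2.06 ± 0.315 to 7.59 ± 1.07 FPKM. Paralogs of the Ifit and Oas families can share reads, so their separate levels are uncertain. Ifitm1 fell from 199.7 ± 13.9 to 145 ± 15.6 FPKM, and Isg15 (adjusted p = 0.195) and Stat2 (adjusted p = 0.771) overlapped. Of 33 measured members 18 were higher, 11 by at least 2-fold, and 1 lower, with a median of 0.48 log2.

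Many interferon-induced promoters hold the interferon-stimulated response element, and its core, a pair of GAAA parted by any 2 bases, was searched on both strands. Ifit3 and Oas1a, whose rise is given above, are shown from 230 bases before to 20 after the RefSeq start, on GRCm38.p6, 5′ to 3′, with the core in capitals. In Oas1a its 2 matches overlap.
Ifit3, chr19:34583299-34583548, + strand: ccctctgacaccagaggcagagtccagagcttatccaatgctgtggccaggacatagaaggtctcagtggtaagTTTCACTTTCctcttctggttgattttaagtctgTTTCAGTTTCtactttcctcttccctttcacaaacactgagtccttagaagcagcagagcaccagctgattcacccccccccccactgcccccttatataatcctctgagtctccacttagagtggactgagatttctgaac
Oas1a, chr5:120907506-120907755, - strand: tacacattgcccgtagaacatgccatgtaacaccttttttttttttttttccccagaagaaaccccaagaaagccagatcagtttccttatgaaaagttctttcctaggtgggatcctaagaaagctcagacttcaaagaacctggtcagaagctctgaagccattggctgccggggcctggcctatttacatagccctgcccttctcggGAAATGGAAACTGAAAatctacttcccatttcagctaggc
The core letters were in 13 of 25 interferon genes with a promoter entry (52.0%), in 3.6% of the tested genes and in 3.44% of 32851 promoters.

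Several chemokines rose, while Cxcl15 of the glands, given above, fell. Cxcl17, a mucosal chemokine, read 40.2, 24.9, 11.7 and 21.3 FPKM at diestrus and 304, 266 and 307 at estrus (log2 difference 3.64, SE 0.34, adjusted p = 1.95e-04). Ccl28, which draws antibody-secreting cells to mucosae, read 24.5, 6.37, 1.9 and 15.9 FPKM at diestrus and 54.3, 62.3 and 84.4 at estrus. Diestrus 1 was the highest and diestrus 3 the lowest of the 4 in both. Cxcl16 rose from 18.7 ± 4.77 to 55.8 ± 7.59 FPKM and Cx3cl1, fractalkine, from 6.32 ± 2.68 to 19.3 ± 1.15 FPKM. Cxcl5, which attracts neutrophils, stood at 0.162, 0.366, 0.7 and 0.064 FPKM at diestrus and 4.22, 1.64 and 3.88 at estrus. Ccl8 read 13.3, 20.7, 92.8 and 8.56 FPKM at diestrus and 40.01, 28.7 and 46.8 at estrus, with diestrus 3 the highest, and did not pass (adjusted p = 0.391). Of 29 measured chemokines and interleukins 14 were higher, 10 by at least 2-fold, and 5 lower, with a median of 0.65 log2 and 3 lower without estrus 1 or without estrus 4.

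Clock genes and immediate early genes depend on the hour and on handling, and the sources used here give neither. Dbp, an output factor of the clock, read 31.5, 15.9, 19.2 and 27.9 FPKM at diestrus and 89.1, 77.8 and 94.9 at estrus (log2 difference 1.89, SE 0.22, adjusted p = 4.65e-04). The repressor Nr1d1 read 12.8, 11.4, 10.3 and 12.1 FPKM at diestrus and 27.4, 19.7 and 30.7 at estrus. Both were higher in every estrus library. Bhlhe40, a repressor of Clock targets, rose from 16.7 ± 4.46 to 58.1 ± 6.32 FPKM. The activators Arntl (6.91 ± 1.55 to 3.02 ± 0.281 FPKM) and Clock (13.5 ± 1.07 to 8.24 ± 0.532 FPKM) fell, and Per1 (adjusted p = 0.188) and Per2 (adjusted p = 0.469) overlapped. Of 21 clock genes 11 were higher and 2 lower. Ier3, an early gene that responds to stress, read 9.98, 25.7, 23.3 and 8.84 FPKM at diestrus and 61.4, 53.4 and 65.9 at estrus (log2 difference 1.91, SE 0.37, adjusted p = 0.00372), with diestrus 2 and 3 the higher ones at diestrus. Junb rose from 19.1 ± 6.73 to 43.6 ± 6.18 FPKM and Atf3 from 6.61 ± 1.64 to 14.1 ± 0.96 FPKM. Fos read 11.8, 12.1, 3.5 and 5.62 FPKM at diestrus and 21.7, 14.5 and 20.1 at estrus, and its call was lost without diestrus 4, estrus 1 or estrus 4 (adjusted p = 0.0643 to 0.0954). Of 23 immediate early genes 14 were higher and 1 lower, and 9 were higher without estrus 1 or without estrus 4. The part of the hour of collection in these lists was not tested.

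Retinoid genes were as often higher as lower, 5 and 5 of 17, shares near those over all genes tested. Stra6, the receptor that takes up retinol, read 40.05, 25.5, 23 and 38.5 FPKM at diestrus and 6.67, 7.37 and 3.35 at estrus (log2 difference -2.28, SE 0.28, adjusted p = 5.32e-04). Crabp1, which binds retinoic acid, fell from 5.14 ± 2.06 to 0.768 ± 0.311 FPKM. Of the retinol dehydrogenases, Rdh10 rose from 48.7 ± 13.3 to 114 ± 15.2 FPKM. Dhrs9, which is not in this list, rose too, with 3.31, 7.63, 4.77 and 1.31 FPKM at diestrus and 20.4, 18.7 and 29.98 at estrus. The retinal dehydrogenase Aldh1a2, of the list, fell from 129.8 ± 65.4 to 50.7 ± 14.5 FPKM (adjusted p = 0.03465 in limma). It read 174, 73.9, 73.7 and 198 FPKM at diestrus and 53.3, 63.8 and 35.1 at estrus, with diestrus 2 and 3 just above estrus. Its call was not examined without each library in turn. Cyp26b1, which degrades retinoic acid, rose from 2.15 ± 1.39 to 6.34 ± 0.84 FPKM. In the prostaglandin system the receptor Ptgfr, which contracts the myometrium, read 10.1, 5.87, 6.3 and 10.8 FPKM at diestrus and 1.59, 2.52 and 2.02 at estrus (log2 difference -1.57, SE 0.22, adjusted p = 9.11e-04). Ptger3, a receptor of prostaglandin E2, fell from 37.1 ± 7.36 to 11.9 ± 0.796 FPKM. The cyclooxygenase Ptgs1 fell from 13.4 ± 2.45 to 7.96 ± 1.35 FPKM, and Ptgs2 read 0.7, 0.6, 0.107 and 1.19 FPKM at diestrus and 2.13, 1.57 and 1.01 at estrus and did not pass (adjusted p = 0.0515). Prostacyclin synthase Ptgis rose from 44.1 ± 6.01 to 75 ± 6.24 FPKM. Of 27 prostaglandin and lipid mediator genes 2 were higher and 11 lower. Scaled by median of ratios, the list had 7 members higher and 8 lower, so the balance of this list depends on the scaling.

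Chromatin regulators moved in both directions. The maintenance methyltransferase Dnmt1 read 23.9, 26.8, 18.4 and 21.2 FPKM at diestrus and 10.4, 9.0 and 9.03 at estrus (log2 difference -1.16, SE 0.13, adjusted p = 3.20e-04), the de novo enzyme Dnmt3a overlapped (adjusted p = 0.589), and Dnmt3b fell from 2.57 ± 0.241 to 1.66 ± 0.202 FPKM. The Polycomb methyltransferases moved in opposite directions. Ezh2, of dividing cells, read 14.2, 12.1, 10.6 and 12.4 FPKM at diestrus and 7.08, 8.07 and 8.4 at estrus. Its paralog Ezh1 read 17.6, 14.5, 17.9 and 16.4 FPKM at diestrus and 32.5, 31.6 and 32.1 at estrus. Tet2, which oxidises methylcytosine, rose from 5.18 ± 0.275 to 7.13 ± 0.304 FPKM. Of 39 measured regulators 11 were higher, none by 2-fold, and 17 lower, 4 by at least 2-fold.

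**Figure D5:**
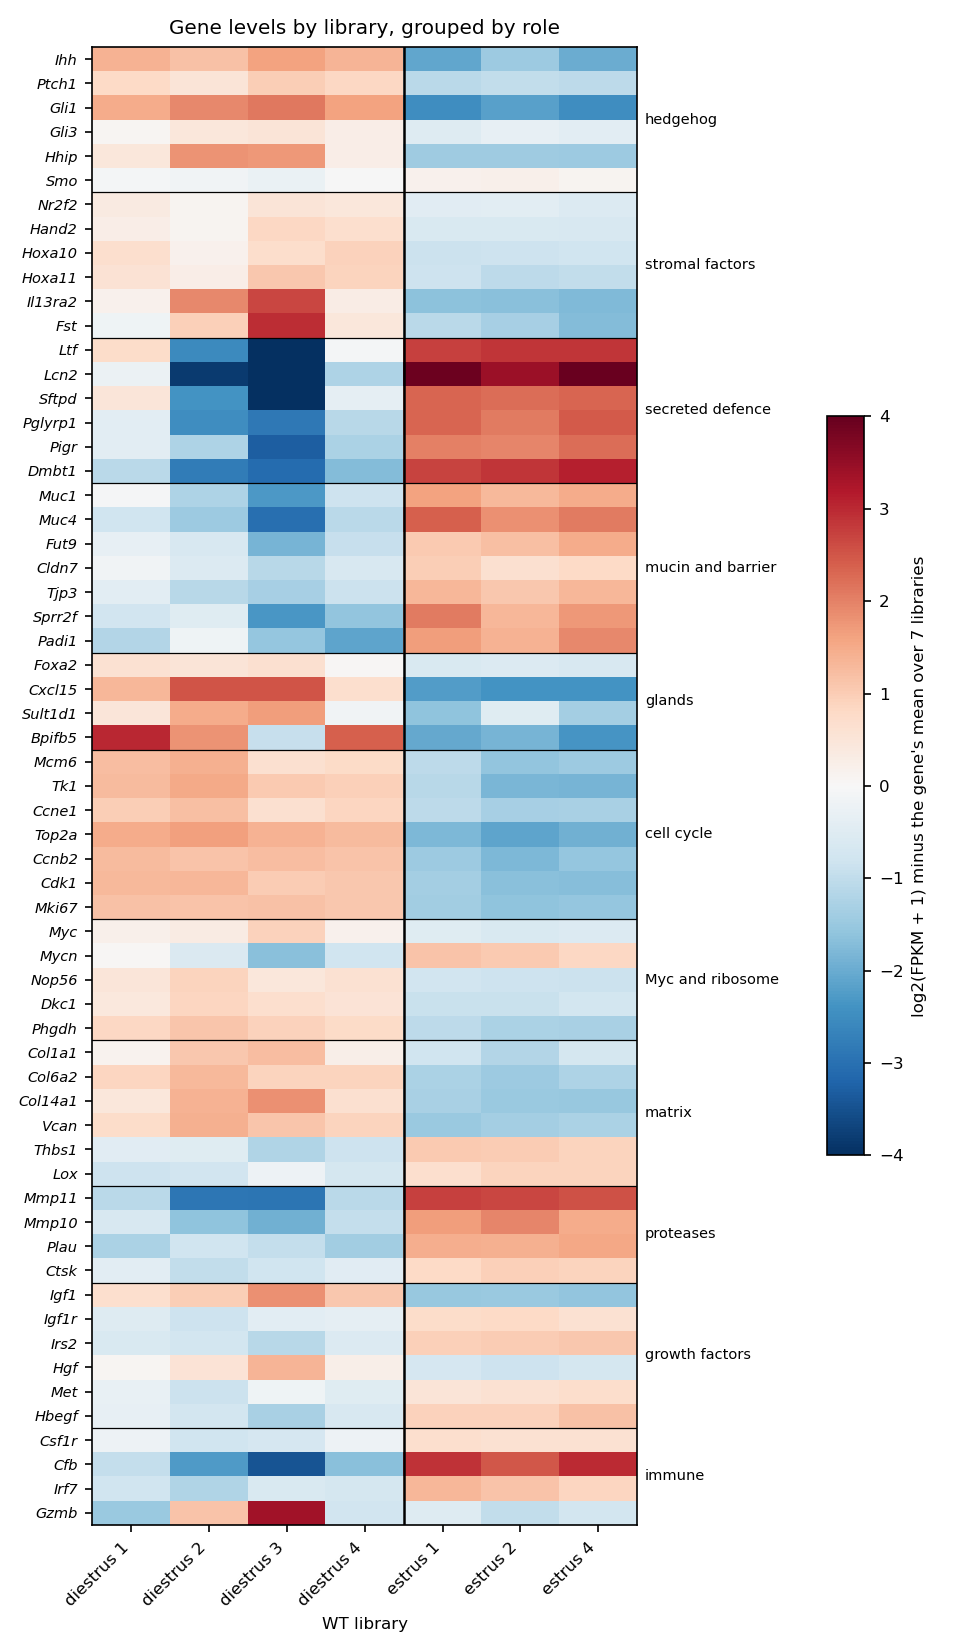
Log2(FPKM + 1) of 61 genes in the 7 WT libraries, minus each gene's mean over the 7, in rows grouped by role. The colours end at 4 in either direction, and the diestrus columns differ from each other in the defence and mucin rows, where diestrus 3 is the lowest in each but Padi1, more than in the cell cycle rows.

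Some genes could not be compared. C3, the central complement protein, was at 153, 92.6, 61.1 and 198 FPKM in the 4 diestrus libraries and listed at 0 in the 3 estrus libraries. Fcgbp, a protein of mucus, was at 256, 65.6, 13.7 and 134 FPKM at diestrus and listed at 0 at estrus. The collagen Col3a1 was listed at 0 at diestrus and at 271, 228 and 284 FPKM at estrus. The elongation factor Eef1a1, which every cell uses, was listed at 0 in all 4 diestrus libraries and at 5246, 4699 and 4759 FPKM at estrus. A 0 of this kind can be a failed estimate, so these rows were left out of the test and of the lists.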

How the data were processed

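Whole-uterus RNA of the 7 WT libraries was purified on columns with DNase treatment and made into libraries with the Illumina TruSeq RNA kit, per the labels' protocols. TopHat2 2.0.4, Cufflinks 2.0.2 and the mouse build mm10 are named in the submitters' processing notes, while the sources used here give no options, annotation, strand setting or sequencing dates. What the authors deposited is a table of FPKM per gene symbol, which scales fragments by transcript length and library size, without counts. Relative depths, read from the steps of low values, ran from 1.0 to 1.84, absolute depth is unknown, and no counting interval is given.

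Genes needed at least 1 FPKM in at least 3 of the 7 libraries, and rows at 0 in a whole stage but averaging 50 FPKM or more in the other were left out. log2(FPKM + 1) was fitted by limma 3.58.1 (R 4.3.3) on the 7 WT libraries, with a mean-variance trend and Benjamini-Hochberg adjustment, and a gene was called at an adjusted p under 0.05. The pseudocount of 1 understates the change of low genes. The fit was tested on simulated data with noise drawn separately for each gene. That does not cover deviations that many genes share within a library. Named genes are the receptors and markers given first, the 15 largest changes in each direction averaging 5 FPKM or more in the higher stage and without overlap, and for each list the 3 largest rises and falls and the most abundant member not called. Some genes that this rule took are not reported here, and other members named were chosen after their values were seen. The members, lists and rules were chosen with earlier results of these data known, so their counts are descriptions. Coordinates are from GENCODE M21 (GRCm38, the same assembly as mm10), and promoter sequences from RefSeq on GRCm38.p6. Figures were drawn with matplotlib 3.10.9.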

Additional observations from a re-analysis of the deposited data

Results flagged for a closer look

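For 19 genes and 2 summed lists, 1 of the 4 WT diestrus libraries lay far from the other 3, with a gap to the nearest that exceeds Dixon's critical share of the range for 4 samples. They are 7.34% of 286 values examined, against 6.65% of all genes tested, and chance flags about 1 in 20, so the number of flags is near the background. Diestrus 3 was that library in 14 of 21 and diestrus 2 in the other 7.

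Diestrus 3 was the highest for the summed natural killer and T cell markers (250.6 FPKM, others 24.72 to 44.09), for Gzma (56 FPKM, others 1.24 to 2.52) and for Ncr1 (21.2 FPKM, others 3.37 to 4.05). The same library was the highest for the chemokine Ccl8 (92.8 FPKM, others 8.56 to 20.7) and for the summed endothelial markers (653.7 FPKM, others 383.6 to 427.7). It was also the highest for Epas1 (43.5 FPKM, others 31.2 to 32.7), Fst (43.2 FPKM, others 4.13 to 10.1), Ndrg1 (40.3 FPKM, others 20.5 to 21.4) and Myc (64.1 FPKM, others 38.2 to 42.7). The remaining high values of diestrus 3 were Ccng2 at 21.4, Lox at 54.1 and Stat2 at 12.3 FPKM, and its low ones Hspb1 at 95.9 and Ptgs1 at 9.72 FPKM.

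Diestrus 2 was the highest for Col6a2 (921 FPKM, others 682 to 692), Hspd1 (215 FPKM, others 143 to 148), Odc1 (54.4 FPKM, others 32 to 35.6), Pgk1 (88.7 FPKM, others 62.5 to 66.7) and Ndufs1 (47.5 FPKM, others 39.3 to 40.1). It was the lowest for the cathepsin Ctsl (121 FPKM, others 156 to 161) and for Srd5a1 (2.38 FPKM, others 3.08 to 3.16).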

How the results depend on the processing

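No gene was called in opposite directions in the FPKM fit and in any of the 23 alternative settings or left-out libraries. Leaving out each library in turn gave 6256 to 8198 called genes, 2491 to 3363 higher and 3759 to 4835 lower, and 723 to 876 higher and 692 to 808 lower by at least 2-fold. A test against a minimum change of 1.5-fold called 1211 genes, 579 higher and 632 lower. With a pseudocount of 5, 377 genes were at least 2-fold higher and 320 lower, and the same genes give smaller folds by construction. Quantile normalization gave 3571 higher and 4188 lower genes and upper-quartile scaling 3529 and 4068. Deviations of same-numbered libraries correlated at -0.095, -0.145 and -0.065, and those of differently numbered ones at -0.045 to 0.116. Same-numbered libraries thus showed no positive correlation, but so few pairs cannot settle whether the numbers pair the libraries. A fit with the number as a block called 2963 genes higher and 4184 lower, 2688 and 3985 of them shared with the fit without it. Number 3 occurs only at diestrus, so diestrus 3 does not enter the stage difference of the block fit. In that block fit 5 of 12 natural killer and T cell markers were higher, without a part of diestrus 3, where their sum was highest. This count is therefore not separate from that of leaving out diestrus 3. Of 230 called genes named in the text, Aldh1a2 not included, 218 kept the call without each library in turn. The other 12 are given as such beside their values. Against a minimum change of 1.5-fold 81 of the 230 lost the call, without a filter on low values 7, and in a fit of all 14 libraries 2. Depth is known only in relative terms, values under 1 FPKM rest on few reads, and 4 against 3 libraries limit the precision of every value.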
